A study of Rattus norvegicus with 12 samples.

Results

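The 76 genes described here encode proteins of the cytosolic ribosome. They were taken by symbol from a table of 34034 gene symbols, as those written Rpl or Rps and a number (with an a where there is one) together with Rplp0, Rplp1, Rplp2 and Rpsa, and S6 kinase genes were not matched. All 76 were kept among the 14324 genes that passed a filter of a CPM (counts scaled to library size) above 1 in at least 2 of 12 libraries. Of these genes, 30 encode proteins of the small (40S) subunit and 46 proteins of the large (60S) subunit. Membership was set by name and the filter alone, although the family was taken up with earlier results of these data known.

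RNA was measured in INS-1E, an established rat insulinoma line of β-cell type, labelled wild type and sequenced as 1 cell line in 4 groups of 3 libraries. Untreated cells received no cytokine. IL-1βlow cells were preconditioned with 10 pg/ml IL-1β over 72 h, with fresh cytokine every 24 h and no change of medium. CYT cells were challenged for 16 h with 100 pg/ml IL-1β and 5 ng/ml IFN-γ, and IL-1βlow + CYT cells were preconditioned, given new medium and then challenged in the same way. Each library is labelled as a biological replicate, and the labels do not say whether the replicates came from separate cultures, so p-values measure the spread between these libraries. Total counts ran from 15812640 to 20246806 per library.

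A eukaryotic ribosome is built from ribosomal RNAs and a large set of proteins, and the mRNAs of these proteins are among the most abundant in a cell. Most carry a run of pyrimidines at their 5′ end, the terminal oligopyrimidine (TOP) motif, through which mTORC1 and the RNA-binding protein Larp1 control their translation and stability. β-cells translate large amounts of proinsulin, and inflammatory cytokines limit translation in them through the integrated stress response. The counts measure the mRNAs and not the proteins or their assembly.

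Promoter sequences from RefSeq (assembly GRCr8, another build than the mRatBN7.2 used for the counts) could be matched to 60 of the 76 genes. The pyrimidine run that touched the 5 bases on either side of the annotated start was at least 5 bases long in 45 of the 60 (75%), against 28.1% of 10073 tested genes with such a sequence. A run of at least 8 bases was present in 39 (65%), against 8.31%, and the median run was 10 bases against 3. The starts of 6 genes are shown, chosen for the largest rises and the smallest changes in the CYT response given further on. Each window holds 15 bases before the annotated start and 15 from it, 5′ to 3′, and capitals mark the pyrimidine run.
Rpl12, chr3:36661925-36661954, plus strand: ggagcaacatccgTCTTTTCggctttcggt
Rpl10a, chr20:6390518-6390547, plus strand: gaaaccttctgCCTTCTTTTCCggttcccg
Rpl3, chr7:113507976-113508005, minus strand: ccagcgcctgctcgaTCTCTatcggcggcg
Rps26, chr7:1643390-1643419, minus strand: gagagccgccgggTCCTCTTTCgagtcttg
Rpl35a, chr11:81235007-81235036, minus strand: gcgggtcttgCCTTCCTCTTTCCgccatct
Rpl36, chr9:1533765-1533794, plus strand: ctgtccggccgCCatcggaaagctgcaggt
Rpl12, Rpl10a and Rpl3 rose most in CYT cells among the genes with a sequence, and Rps26, Rpl35a and Rpl36 had the smallest changes of all 76. A run of at least 5 bases was present in 5 of these 6 starts, Rpl36 being the exception. Across the 60 genes, the median log2 fold change of CYT against untreated cells was 0.49 for the 45 genes with a run of at least 5 bases and 0.44 for the 15 without, and 35 and 13 of these genes passed the test.

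Other short sequences were searched on both strands of the whole 300-base promoter, which runs from 250 bases before the start to 50 after it. CCGGAA, the core bound by ETS-family factors, was in 32 of the 60 promoters (53.3%) and in 27.9% of those of tested genes. TCTCGCGA was in 12 (20%) against 2.13%, and TATATA in 7 (11.7%) against 2.51%. The E-box CACGTG, to which Myc can bind, was in 5 (8.33%) against 9.41%, and AAGATGGC was in 5 (8.33%) against 5.69%. Of the 60 genes 48 rose with CYT (80%), and a split by each sequence is given as a description with no test. For CCGGAA, 25 of 32 genes with it and 23 of 28 without it rose, at median log2 fold changes of 0.47 and 0.50. For TCTCGCGA these were 11 of 12 and 37 of 48 genes, at medians of 0.63 and 0.45, and for TATATA 6 of 7 and 42 of 53, at 0.51 and 0.48. For CACGTG they were 5 of 5 and 43 of 55, at 0.70 and 0.46, and for AAGATGGC 4 of 5 and 44 of 55, at 0.56 and 0.48. These matches are letters in a window and were not tested as binding sites.

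The 76 ribosomal protein genes took a larger share of all counts in CYT cells than in any other group. Reads assigned to named copies or to related genes outside the pattern are not in this share. The share was 1.08, 1.14 and 1.22% in untreated libraries 1 to 3, 1.28, 1.32 and 1.19% in IL-1βlow, 1.56, 1.70 and 1.57% in CYT and 1.29, 1.32 and 1.13% in IL-1βlow + CYT libraries. The 3 CYT libraries lay above all 9 others, and the other 3 groups overlapped. Group means were 1.15 ± 0.0711% (SD, n = 3) for untreated, 1.26 ± 0.0668% for IL-1βlow, 1.61 ± 0.0783% for CYT and 1.25 ± 0.102% for IL-1βlow + CYT cells. A share is relative to all other mRNAs, so more ribosomal protein mRNA per cell and less of other mRNAs cannot be told apart, nor can a change in every cell and a change in the number of cells of a kind.

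**Figure D1:**
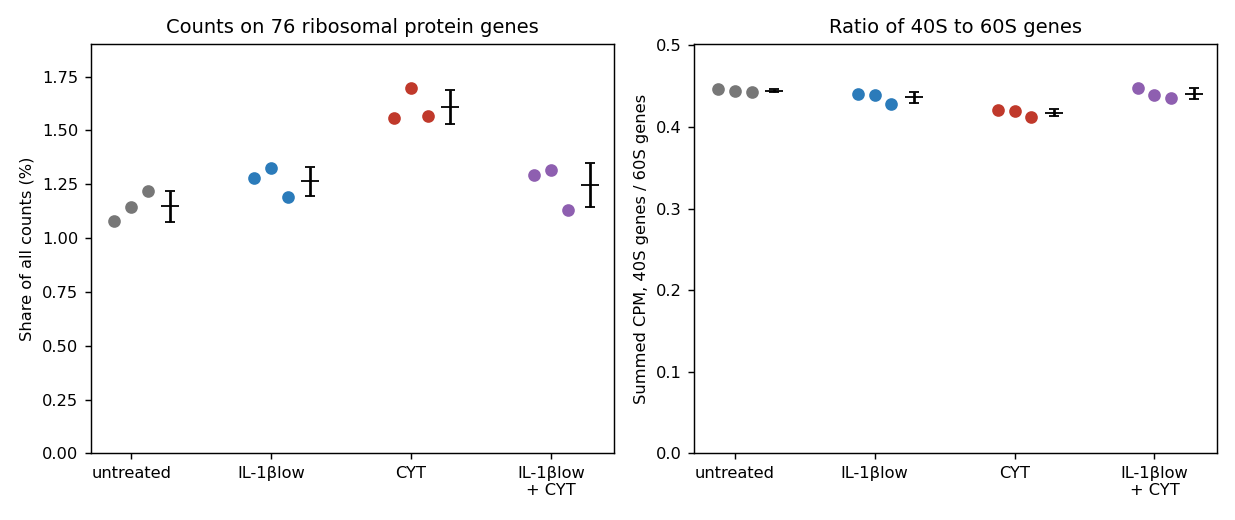
Share of all counts that fell on the 76 ribosomal protein genes (left, percent) and ratio of the summed CPM of 40S to 60S genes (right), with 1 point per library, and mean ± SD of the 3 libraries of each group in black. CYT libraries lie highest in share, between 1.56% and 1.70%, and lowest in ratio, between 0.412 and 0.420.

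Mitochondrial mRNAs took 3.30 to 4.10% of counts in untreated, 2.24 to 4.25% in IL-1βlow, 1.69 to 2.67% in CYT and 2.81 to 3.92% in IL-1βlow + CYT libraries, and IL-1βlow replicate 2 lay within the CYT range. The 45S ribosomal RNA precursor gene Rn45s took 6.89 to 11.1% over all libraries, and the ranges of the 4 groups were 6.89 to 10.3%, 8.33 to 9.85%, 7.87 to 9.36% and 9.96 to 11.1% in the same order. Of 8 tested β-cell markers, 7 fell with CYT, against 31.7% of all tested genes. All 8 were higher in IL-1βlow + CYT than in CYT cells, against 25.3%. In IL-1βlow + CYT against untreated cells 5 of the 8 were lower and 1 higher, against 9.59% and 12.2%. Among 14 markers of other islet cells, leukocytes, endothelium, fibroblasts and exocrine pancreas, 3 passed the filter (Gcg, Ghrl and Cd68) and 3 were at 0 in every library (Ptprc, Prss1 and Cpa1). Their summed level was 195 to 361 CPM in untreated, 156 to 267 in IL-1βlow, 26.6 to 66.8 in CYT and 75.7 to 152 in IL-1βlow + CYT libraries, most of it from Gcg, the glucagon gene. The part of these differences in the ribosomal protein results was not tested.

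The question of the first comparison is what the challenge alone does. In CYT against untreated cells, 61 of 76 genes rose (80.3%), none fell, and the remaining 15 did not pass the test. Among all tested genes, 30.6% rose and 31.7% fell. A gene was called when its adjusted p was under 0.05 in the quasi-likelihood test of edgeR, with p-values adjusted by Benjamini-Hochberg across the 14324 genes, and every adjusted p given in this text comes from that test. The median log2 fold change was 0.45, a fold of 1.37, against -0.04 over all tested genes, and single genes ran from -0.20 to 1.33. For 43 of the 61 genes the rise was under 1.5-fold. No member was lower at an unadjusted p under 0.05, and DESeq2 and exactTest also called none lower.

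By level, all 3 CYT libraries lay above all 3 untreated libraries for 65 of 76 genes, against 34.0% of all tested genes. For 46 genes the CYT libraries lay above all 9 others, against 22.9%. The highest of the 4 group means was that of CYT for 68 genes, and the lowest that of untreated cells for 62. Neither was counted over all tested genes, so how unusual these counts are is not known. The libraries of a group did not lie level. CYT replicate 2 was the highest CYT library for 62 genes, and IL-1βlow + CYT replicate 3 was the lowest of its group for 65. These orders were not counted over all tested genes either. The median coefficient of variation within a group was 8.22%. With the study's thresholds, an adjusted p under 0.01 and a log2 fold change above 1, 3 genes rose (Rpl12, Rpl10a and Rps20), against 10.0% of all tested genes.

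**Figure D2:**
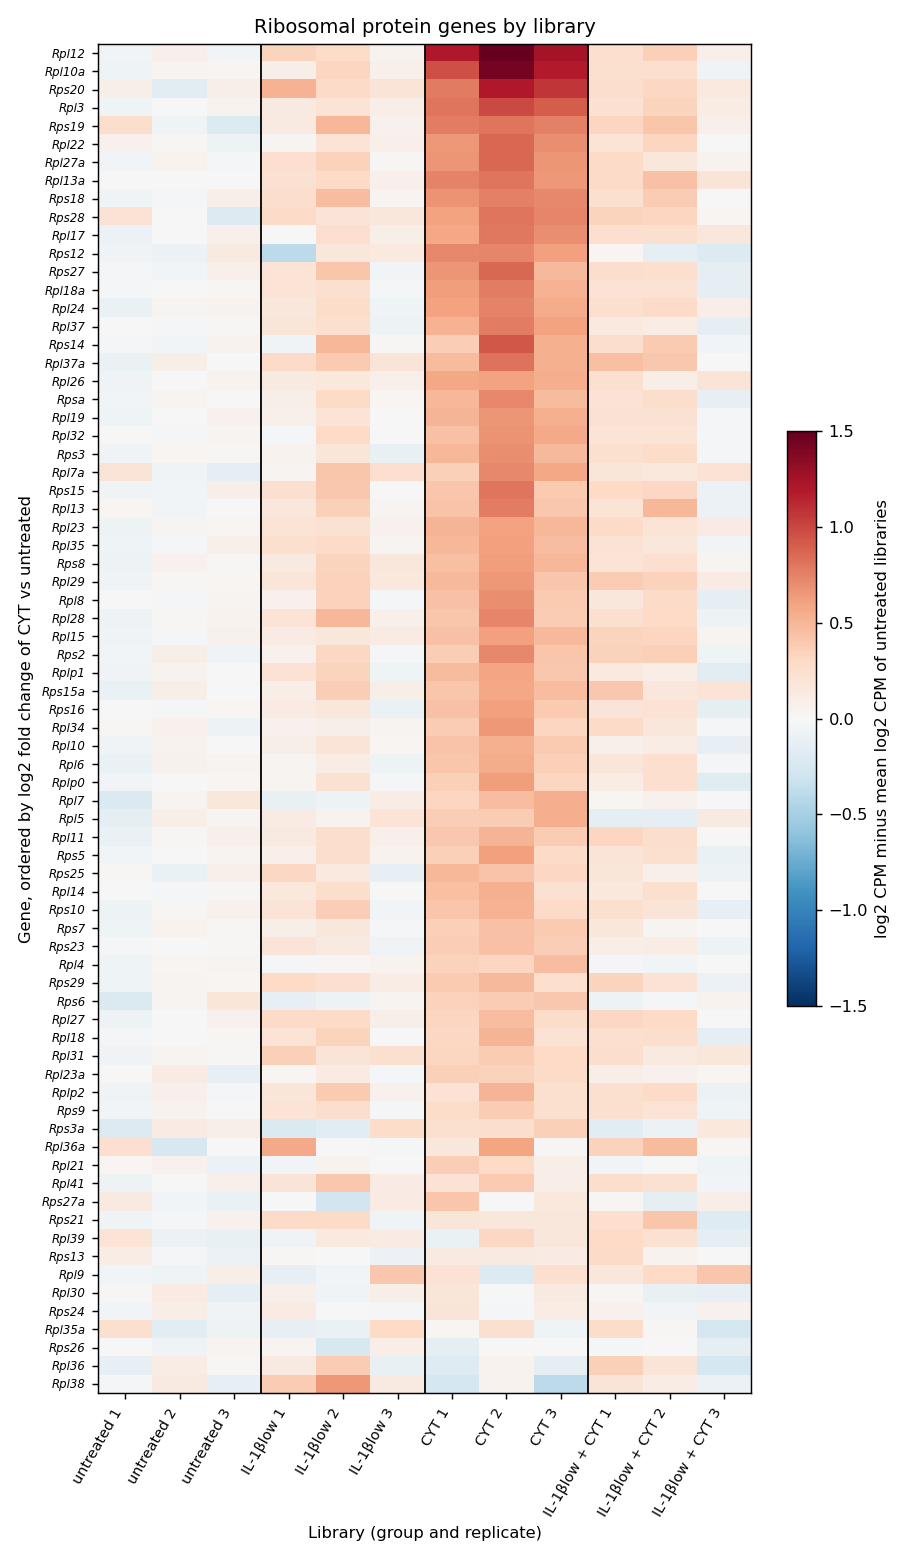
log2 CPM of the ribosomal protein genes (rows, a few genes not drawn, ordered by the log2 fold change of CYT against untreated cells) in each library (columns, by group and replicate), less the mean of the 3 untreated libraries; red is higher and blue lower. The CYT columns are red from Rpl12 at the top for most rows, and the rows of Rps26, Rpl36 and Rpl38 at the bottom are not.

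Changes of single genes are given as log2 fold changes throughout. The largest rise was that of Rpl12, which sits at the base of the ribosomal stalk where elongation factors dock. Rpl12 was at 89.6, 97.0 and 89.2 CPM in untreated libraries, 116, 111 and 95.7 in IL-1βlow, 211, 263 and 219 in CYT and 109, 117 and 97.1 in IL-1βlow + CYT. The CYT libraries held more than any other library, and IL-1βlow and IL-1βlow + CYT libraries overlapped. Rpl12 rose 2.51-fold with CYT, a log2 fold change of 1.33 ± 0.11 (SE, adjusted p = 8.6e-08). Rpl10a, the protein of the L1 stalk near which spent tRNA leaves, followed. Rpl10a was at 46.7, 50.1 and 49.6 CPM in untreated libraries, 52.0, 61.2 and 51.5 in IL-1βlow, 95.0, 132 and 111 in CYT and 57.5, 58.2 and 47.1 in IL-1βlow + CYT. Again the CYT libraries stood clear of the 9 others, and 1 of the IL-1βlow + CYT libraries lay within the untreated range. Its log2 fold change with CYT was 1.21 ± 0.12 (SE, adjusted p = 1.1e-06). Rpl12, Rpl10a and the next gene, Rps20, each have a named copy in the table with which reads may be shared, so their values are uncertain.

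Rps20, a protein of the head of the 40S subunit, was a low-count gene here. Rps20 was at 6.70, 5.62 and 6.69 CPM in untreated libraries, 9.08, 7.73 and 7.22 in IL-1βlow, 10.9, 14.5 and 13.3 in CYT and 7.60, 7.81 and 7.01 in IL-1βlow + CYT. All CYT libraries were above all others, and its log2 fold change was 1.02 ± 0.15 (SE, adjusted p = 4.2e-05). Rpl3, which lies near the peptidyl transferase centre and joins the 60S subunit early in assembly, was among the high-count genes. Rpl3 was at 589, 618 and 637 CPM in untreated libraries, 677, 708 and 660.0 in IL-1βlow, 1070, 1216 and 1151 in CYT and 717, 775 and 662 in IL-1βlow + CYT. Its CYT libraries were again the highest 3 of 12, while IL-1βlow and IL-1βlow + CYT libraries lay just above the untreated ones and overlapped each other. Its log2 fold change was 0.90 ± 0.08 (SE, adjusted p = 4.3e-07). Rps19, a 40S protein whose gene is mutated in Diamond-Blackfan anaemia, rose by 0.76 ± 0.16 (SE, adjusted p = 0.0011), from 7.73, 6.16 and 5.59 CPM in untreated to 10.9, 11.2 and 10.8 in CYT libraries.

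**Figure D3:**
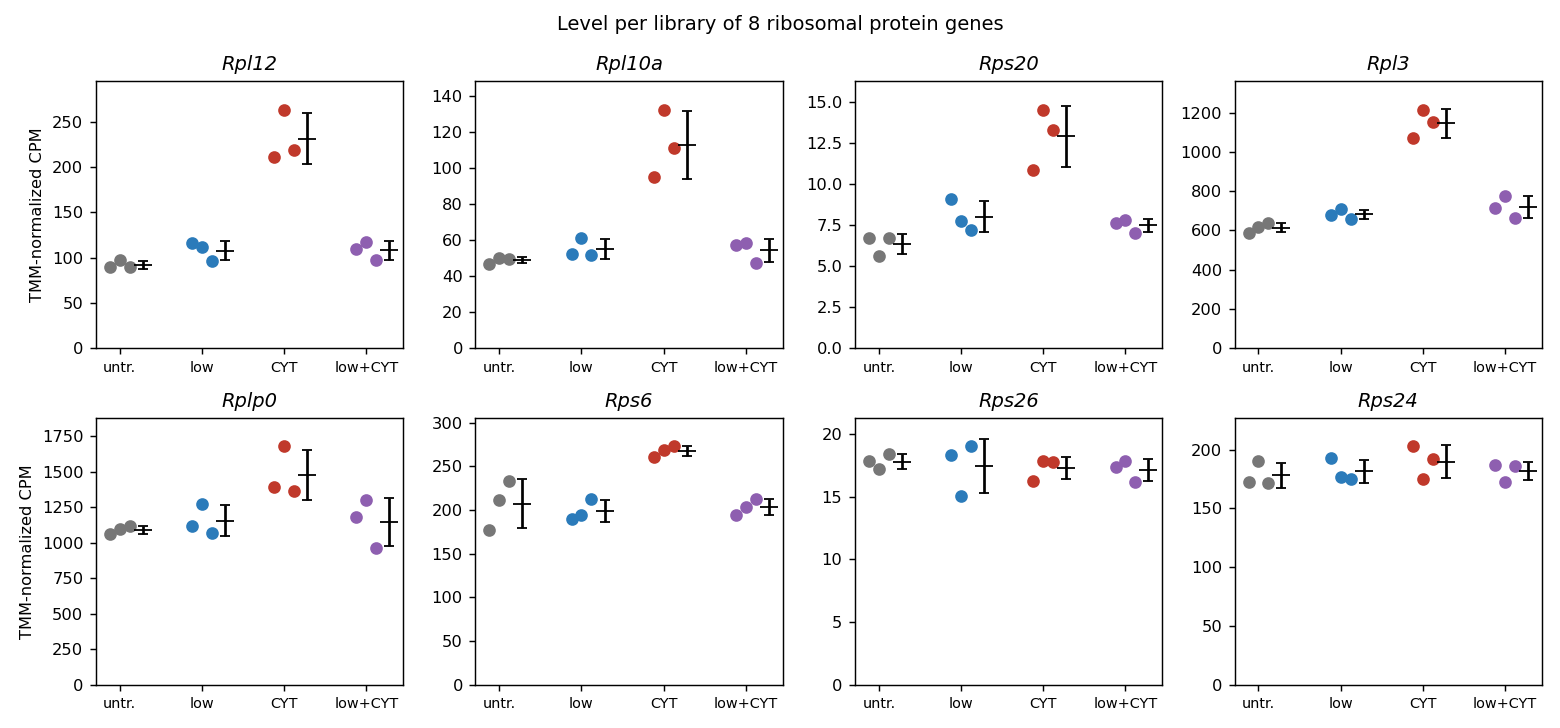
TMM-normalized CPM of 8 ribosomal protein genes in each library (points, by group, where untr. is untreated and low is IL-1βlow, with mean ± SD of 3 libraries in black; each panel has its own scale from 0). CYT points lie above all others for Rpl12, Rpl10a, Rps20, Rpl3, Rplp0 and Rps6, and among the others for Rps26 and Rps24.

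The P stalk, formed by Rplp0 with pairs of Rplp1 and Rplp2, recruits elongation factors to the ribosome. Rplp0 was at 1059, 1096 and 1116 CPM in untreated libraries, 1122, 1277 and 1071 in IL-1βlow, 1392, 1680 and 1366 in CYT and 1179, 1301 and 964 in IL-1βlow + CYT. The CYT libraries were the highest, and IL-1βlow + CYT replicate 3 was below every untreated library. Rplp0 rose with CYT by 0.44 ± 0.12 (SE, adjusted p = 0.0043), Rplp1 by 0.49 (adjusted p = 0.0011) and Rplp2 by 0.33 (adjusted p = 0.028) on the log2 scale. The Rplp2 call was lost without CYT replicate 2 (log2 fold change 0.23, adjusted p = 0.14) and with upper quartile scaling (0.23, adjusted p = 0.098).

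Rpl5 and Rpl11 join the 60S subunit with 5S RNA and, when free of the ribosome, bind Mdm2. Rpl5 was at 223, 262 and 251 CPM in untreated libraries, 267, 255 and 282 in IL-1βlow, 317, 318 and 358 in CYT and 222, 221 and 269.6 in IL-1βlow + CYT. The CYT libraries held the highest values, and those of IL-1βlow + CYT cells lay within or just below the range of the unchallenged groups. The log2 fold change with CYT was 0.43 ± 0.10 (SE, adjusted p = 0.0013) for Rpl5 and 0.43 (adjusted p = 0.0011) for Rpl11. Rpl23 and Rpl26, 60S proteins that also bind Mdm2, rose by 0.53 (adjusted p = 3.2e-05) and 0.58 (adjusted p = 9.8e-06). For both, the CYT, IL-1βlow and IL-1βlow + CYT libraries all lay above the untreated ones.

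Among other 60S proteins with a known role, Rpl13a, which takes part in translational silencing of inflammatory mRNAs after IFN-γ in myeloid cells, rose by 0.73 ± 0.08 (SE, adjusted p = 3.7e-06). Rpl13a was at 153, 153 and 154 CPM in untreated libraries, 179, 189 and 162 in IL-1βlow, 256, 267 and 241 in CYT and 188, 208 and 175 in IL-1βlow + CYT. Rpl13a was higher in every library of the 3 cytokine groups than in any untreated library. Rpl10, which joins the 60S subunit late and completes it, rose by 0.45 (adjusted p = 0.00028). Rpl22, which has a close paralogue in Rpl22l1, rose by 0.74 (adjusted p = 5.1e-05), from 19.0, 18.3 and 17.2 CPM to 28.6, 32.9 and 29.5. Rpl41, the shortest ribosomal protein, and Rpl39, which lines the exit tunnel, did not pass the test, with log2 fold changes of 0.24 (adjusted p = 0.062) and 0.13 (adjusted p = 0.44).

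Among 40S proteins, Rps6, the protein that S6 kinases phosphorylate, was at 178, 211 and 233 CPM in untreated libraries, 189, 195 and 213 in IL-1βlow, 261, 269 and 273 in CYT and 195, 203 and 213 in IL-1βlow + CYT. Its 3 CYT libraries were above the rest, which overlapped throughout, and its log2 fold change was 0.37 ± 0.09 (SE, adjusted p = 0.0032). Rps2 and Rps3, at the entry of the mRNA channel, rose by 0.51 (adjusted p = 0.0031) and 0.56 (adjusted p = 0.00022). Rpsa, also known as the laminin receptor, rose by 0.57 (adjusted p = 0.00043), from 354, 375 and 363 to 514, 601 and 504 CPM. Rps14, of the 40S platform, rose by 0.63 (adjusted p = 0.0049), with CYT replicate 2 at 44.5 CPM and the other CYT libraries at 30.0 and 33.5. Rps27a, which is made as a fusion with ubiquitin, had a log2 fold change of 0.20 (adjusted p = 0.24), and its groups overlapped.

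The rise was spread over both subunits. In the 40S subunit 23 of 30 genes rose, at a median log2 fold change of 0.42, while 38 of 46 genes of the 60S subunit rose, at a median of 0.47. The ratio of summed CPM of 40S to 60S genes was 0.446, 0.444 and 0.442 in untreated, 0.440, 0.440 and 0.428 in IL-1βlow, 0.420, 0.420 and 0.412 in CYT and 0.448, 0.439 and 0.435 in IL-1βlow + CYT libraries. The CYT libraries were the lowest 3, at 0.417 ± 0.00453 (SD, n = 3) against 0.444 ± 0.00172 in untreated cells. A sum is led by the genes with most counts, such as Rplp0 and Rpl3, and leaves out reads assigned to gene copies. As a ratio of geometric means, in which each gene counts alike, the groups were at 0.706 ± 0.00925, 0.690 ± 0.00445, 0.694 ± 0.0125 and 0.692 ± 0.00530 in the same order of groups, and CYT no longer stood apart.

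The 15 genes that did not pass the test with CYT included Rpl9, Rpl30, Rpl35a, Rpl36, Rpl36a, Rpl38, Rpl39, Rpl41, Rps3a, Rps24, Rps26 and Rps27a. The smallest changes were those of Rps26, Rpl35a and Rpl36, with log2 fold changes of -0.04 ± 0.11 (SE, adjusted p = 0.77), 0.06 ± 0.19 (SE, adjusted p = 0.80) and -0.09 ± 0.15 (SE, adjusted p = 0.63). Rps26, which lines the mRNA exit channel of the 40S subunit, was at 17.8, 17.2 and 18.4 CPM in untreated libraries, 18.3, 15.0 and 19.0 in IL-1βlow, 16.2, 17.8 and 17.7 in CYT and 17.4, 17.9 and 16.2 in IL-1βlow + CYT. All 4 groups overlapped for Rps26. Rps24 was at 173, 190.4 and 171 CPM in untreated libraries, 193, 177 and 175 in IL-1βlow, 203, 175 and 192 in CYT and 187, 173 and 186 in IL-1βlow + CYT, with a log2 fold change of 0.09 ± 0.08 (SE, adjusted p = 0.34) and overlap of all groups. Rpl38 was the gene with the lowest log2 fold change, -0.20 ± 0.18 (SE, adjusted p = 0.37), at 5.04, 5.62 and 4.68 CPM in untreated and 4.24, 5.30 and 3.88 in CYT libraries. Of 8 genes with a mean under 10 CPM, Rpl9, Rpl35a, Rpl36a and Rpl38 were among these 15, while Rps12, Rps19, Rps20 and Rps28 rose.

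**Figure D4:**
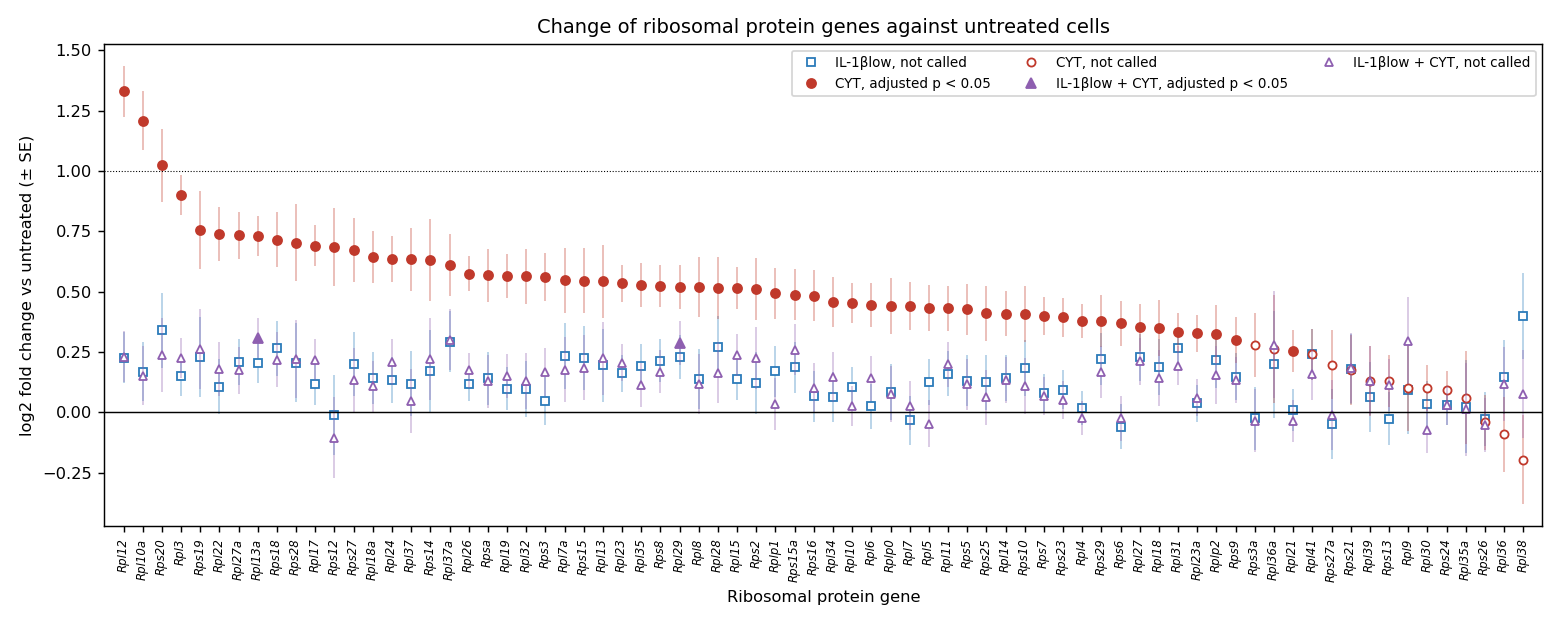
log2 fold change (± SE) against untreated cells of the ribosomal protein genes (a few not drawn) for IL-1βlow (squares), CYT (circles) and IL-1βlow + CYT (triangles), ordered by the CYT value; filled symbols passed at an adjusted p under 0.05 and the dotted line is at 1. CYT values fall from 1.33 for Rpl12 to -0.20 for Rpl38, and the other 2 series have medians of 0.14. Over all 76 genes these run from -0.09 to 0.40 for IL-1βlow and from -0.10 to 0.31 for IL-1βlow + CYT.

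The second comparison asks how preconditioned cells differ from others under the same challenge. In IL-1βlow + CYT against CYT cells, 48 of 76 genes were lower (63.2%) and none was higher, against 25.5% lower and 25.3% higher among all tested genes. DESeq2 and exactTest also called none higher, and none was higher at an unadjusted p under 0.05. The median log2 fold change was -0.34, against 0.02 over all genes. All 48 were among the 61 genes that rose in CYT against untreated cells, a comparison with the same CYT libraries. All 3 IL-1βlow + CYT libraries lay below all 3 CYT libraries for 53 genes, against 27.6% of tested genes. With the study's thresholds 2 genes were lower, Rpl12 and Rpl10a, against 5.92% of tested genes. Without CYT replicate 2, 35 genes were lower, a count not made over all tested genes. Same-numbered libraries of the 3 cytokine groups deviated together over all tested genes, weakly in replicate 1. Between CYT and IL-1βlow + CYT, deviations from group means correlated at 0.116, 0.475 and 0.453 in replicates 1 to 3. Over the 76 genes these correlations were -0.117, 0.619 and 0.613. A fit blocked by replicate number called 57 genes lower, or 64 in a fit of the 9 cytokine-treated libraries alone. The 48 were among them in both fits. Over all tested genes, calls in both directions together went from 7267 to 8319 with the block in all 12 libraries.

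Rpl12 was lower, with a log2 fold change of -1.10 ± 0.10 (SE, adjusted p = 1.4e-06), as was Rpl10a, with -1.06 ± 0.12 (SE, adjusted p = 8.0e-06). Rps12, a protein of the 40S head, was lower, at -0.79 ± 0.16 (SE, adjusted p = 0.0011). It was at 9.94, 10.0 and 9.25 CPM in CYT and 6.14, 5.52 and 5.23 in IL-1βlow + CYT libraries, with no overlap, and at 5.84, 5.68 and 6.63 in untreated ones. Lower as well were Rps20, at -0.78 (adjusted p = 0.00058), Rpl3, at -0.67 (adjusted p = 1.4e-05), and Rpl22, at -0.56 (adjusted p = 0.00078). The log2 fold change was -0.48 (adjusted p = 0.00088) for Rpl5, -0.43 (adjusted p = 0.00069) for Rpl10 and -0.42 (adjusted p = 0.00079) for Rpl13a in the 60S subunit. In the 40S subunit it was -0.40 (adjusted p = 0.0043) for Rps3, -0.44 (adjusted p = 0.0041) for Rpsa and -0.39 (adjusted p = 0.0029) for Rps6. In the P stalk, Rplp0 had -0.37 (adjusted p = 0.017) and Rplp1 -0.46 (adjusted p = 0.0026), while Rplp2 did not pass, at -0.17 (adjusted p = 0.25). The Rplp0 call was lost without CYT replicate 2 (adjusted p = 0.090) and without IL-1βlow + CYT replicate 3 (adjusted p = 0.061).

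Of the genes that rose with CYT, 13 did not pass in this comparison, among them Rpl11, Rpl13, Rpl18, Rpl27, Rpl31, Rplp2, Rps2, Rps14 and Rps29. Rpl11 just missed the threshold, at -0.23 ± 0.09 (SE, adjusted p = 0.0505), and its CYT libraries, at 220.1, 236 and 216 CPM, lay above the IL-1βlow + CYT libraries, at 208, 199 and 165. Rps2 had -0.29 (adjusted p = 0.075) and Rps14 -0.41 (adjusted p = 0.054). With the replicate block Rpl11, Rps2 and Rps14 passed (adjusted p = 0.021, 0.0079 and 0.012), and Rplp2 passed with the block in the cytokine-treated libraries alone (adjusted p = 0.024) but not with all 12 (adjusted p = 0.089).

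The third comparison sets preconditioned and challenged cells against untreated ones. Here 2 of 76 genes rose, Rpl13a by 0.31 ± 0.08 (SE, adjusted p = 0.015) and Rpl29, a 60S protein, by 0.29 ± 0.09 (SE, adjusted p = 0.036), against 12.2% of all tested genes. Neither passed the study's thresholds, which 3.85% of tested genes did in that direction. Rpl29 was at 104, 109 and 109 CPM in untreated libraries, 122, 136 and 119.9 in IL-1βlow, 150.2, 169.6 and 143 in CYT and 139.8, 137 and 117 in IL-1βlow + CYT, and the 3 cytokine groups each lay above the untreated libraries. RefSeq places many other genes over Rpl29 in GRCr8, and since the strand setting of the counting is not given in the sources used here its counts are uncertain. None fell, against 9.59% of all tested genes, at an adjusted or an unadjusted p under 0.05 or by DESeq2 or exactTest. The median was 0.14, against 0.00 for all genes, and IL-1βlow + CYT libraries were all above untreated ones for 12 genes, against 20.2% of tested genes. The median was 0.08 without IL-1βlow + CYT replicate 1 and 0.23 without IL-1βlow + CYT replicate 3. DESeq2 called 5 genes higher and the fit with a replicate block 9, the 2 among them. With that block, calls over all tested genes in both directions together went from 3124 to 4548. They were not counted for DESeq2 or without single libraries. Without IL-1βlow + CYT replicate 3, 13 genes rose, without any 1 of untreated replicate 1, untreated replicate 2 or IL-1βlow + CYT replicate 2 none did, and without untreated replicate 3, IL-1βlow replicate 1 or IL-1βlow + CYT replicate 1 the count was 1.

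Against IL-1βlow cells, the challenge changed no ribosomal protein gene that passed the test. No gene had an unadjusted p under 0.05, and DESeq2 and exactTest called none. The median log2 fold change of IL-1βlow + CYT against IL-1βlow cells was -0.01, with single genes from -0.32 to 0.21, while 7.96% of all tested genes rose and 4.99% fell. Leaving out 1 library gave medians from -0.05 (without IL-1βlow + CYT replicate 2) to 0.08 (without IL-1βlow + CYT replicate 3). With the replicate block in the cytokine-treated libraries alone 1 gene passed, Rpl5, at -0.19 (adjusted p = 0.023), and with the block in all 12 none did. Rpl12, for example, had a log2 fold change of 0.00 ± 0.10 (SE, adjusted p = 0.99), Rpl10a -0.02 ± 0.12 (SE, adjusted p = 0.96) and Rpl3 0.07 ± 0.08 (SE, adjusted p = 0.68). Group means of Rpl3 were 682 ± 24.6 (SD, n = 3) CPM in IL-1βlow and 718 ± 56.4 in IL-1βlow + CYT cells.

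The interaction term tests the difference between the CYT response with and without preconditioning. It passed for 50 of 76 genes, in each case with a lower response after preconditioning, against 19.1% of all tested genes in that direction. None passed in the other direction, against 18.1% of tested genes, none at an unadjusted p under 0.05, and DESeq2 called none. Of these, 18 encode proteins of the 40S and 32 of the 60S subunit. All 50 were among the 61 genes that rose with CYT, but the term holds the difference of the same CYT and untreated libraries, so the overlap is no separate result. The median interaction was -0.45 on the log2 scale, against 0.04 over all genes. It was -1.33 ± 0.15 (SE, adjusted p = 2.0e-05) for Rpl12, -1.23 ± 0.17 (SE, adjusted p = 0.00012) for Rpl10a, -1.12 ± 0.21 (SE, adjusted p = 0.0011) for Rps20, -0.82 (adjusted p = 0.00013) for Rpl3 and -0.78 (adjusted p = 0.017) for Rps12. Rpl12, Rpl10a and Rps20 also passed the study's thresholds, against 5.20% of tested genes. Without CYT replicate 2 the count was 32 genes, with no count over all tested genes beside it.

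Among genes with a known role, the interaction passed for Rpl5 at -0.61 (adjusted p = 0.0033), Rplp1 at -0.63 (adjusted p = 0.0051), Rpl13a at -0.63 (adjusted p = 0.0010), Rpsa at -0.58 (adjusted p = 0.0094), Rps3 at -0.44 (adjusted p = 0.024) and Rplp0 at -0.45 (adjusted p = 0.043). It did not pass for Rps6, at -0.34 (adjusted p = 0.059), Rps2, at -0.41 (adjusted p = 0.090), Rps14, at -0.58 (adjusted p = 0.069), or Rplp2, at -0.39 (adjusted p = 0.084). The Rplp0 and Rps3 calls were lost without CYT replicate 2 (adjusted p = 0.12 and 0.066). For Rplp0 the same held without IL-1βlow + CYT replicate 3 (adjusted p = 0.078), without IL-1βlow replicate 2 (0.074), without any 1 untreated replicate (0.054 to 0.064) and with upper quartile scaling (0.074).

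Preconditioning alone, IL-1βlow against untreated cells, gave no call in either direction in edgeR's quasi-likelihood test, in DESeq2 or in exactTest. At an unadjusted p under 0.05, 12 genes were higher and none lower. Among all tested genes, 0.935% were called higher and 0.412% lower. Of 76 genes, 68 had a positive log2 fold change, and the median was 0.14, against 0.00 over all genes. Neither the 12 nor the 68 has a count over all tested genes beside it. The median was 0.08 without IL-1βlow replicate 2 and 0.21 without IL-1βlow replicate 3. IL-1βlow libraries all lay above the untreated ones for 18 genes, against 13.0% of tested genes. IL-1βlow replicate 3 was the lowest of its group for 54 genes, an order not counted over all tested genes. Rpl38, whose protein helps the translation of certain Hox mRNAs, had the largest difference, 0.40 ± 0.18 (SE, adjusted p = 0.34), at 6.67, 7.97 and 5.61 CPM against 5.04, 5.62 and 4.68.

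Of the 17 related genes with a ribosomal protein name or place outside the pattern, 11 were in the table and 8 were tested. With CYT, 5 rose and none fell, against 30.6% and 31.7% of all tested genes. Those that rose included the following. Rack1, a scaffold protein of the 40S head, was at 593, 616 and 595 CPM in untreated libraries, 661, 717 and 611 in IL-1βlow, 892, 1073 and 899 in CYT and 757, 789 and 606 in IL-1βlow + CYT, and rose by 0.67 ± 0.11 (SE, adjusted p = 9.8e-05). Its CYT libraries lay above all others, as they did for 46 of the 76 ribosomal protein genes. Rps4x, a 40S protein, rose by 0.46 (adjusted p = 0.0017), Rps27l by 0.31 (adjusted p = 0.022) and Rpl26l1 by 0.80 (adjusted p = 0.029). Lower in IL-1βlow + CYT than in CYT cells were Rack1 (-0.41, adjusted p = 0.0055), Rps4x (-0.44, adjusted p = 0.0030) and Rpl26l1 (-0.89, adjusted p = 0.022). Fau, the fusion gene of Rps30, did not pass with CYT, at 0.19 (adjusted p = 0.17), nor did Rpl22l1, at -0.11 (adjusted p = 0.69), or Rpl7l1, at -0.16 (adjusted p = 0.085).

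Many copies of these genes lie elsewhere in the rat genome, and reads of a gene and of its near-identical copy can be split or lost in counting. The handling of such reads is not given in the sources used here. A list set up after values had been seen took 41 symbols made of a ribosomal protein name with -ps or l and a number. Of these 33 were tested. The list also holds paralogues such as Rpl22l1, Rpl26l1 and Rpl7l1, counted among the related genes above, so not every symbol is a near-identical copy. With CYT 21 rose (63.6%) and 2 fell (6.06%), against 30.6% and 31.7% of all tested genes, at a median log2 fold change of 0.43. In IL-1βlow + CYT against CYT cells 17 were lower (51.5%) and 1 higher (3.03%), against 25.5% and 25.3%. The largest rises were those of Rpl12-ps2 (0.88, adjusted p = 0.00037), Rpl10a-ps9 (0.85, adjusted p = 4.9e-06) and Rps20-ps11 (0.82, adjusted p = 9.4e-06), each named for 1 of the genes that rose most. More counts were assigned to Rps20-ps11, at 120.3, 135 and 148 CPM in untreated and 213, 255 and 242 in CYT libraries, than to Rps20 itself. Reads may be shared in all 3 pairs of gene and copy, and the values of both are uncertain. Rpl23a-ps16 (-1.59, adjusted p = 0.016) and Rpl34-ps7 (-1.59, adjusted p = 0.047) fell. In GRCr8, 13 of the 76 genes overlap a gene other than a small nucleolar RNA gene, and 30 overlap a small nucleolar RNA gene. Rpl10a overlaps neither, and Rpl12 overlaps a small nucleolar RNA gene.

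Translation factors and a few other genes whose mRNAs also carry, or are reported to carry, TOP motifs were taken as a list of 33, of which 32 were tested. With CYT 18 rose (56.25%) and 1 fell (3.1%), against 30.6% and 31.7% of all tested genes, with a median log2 fold change of 0.34. Eif4b, which stimulates the helicase of the cap complex, rose by 1.43 ± 0.08 (SE, adjusted p = 1.7e-09), and the poly(A)-binding proteins Pabpc4 and Pabpc1 by 1.03 (adjusted p = 1.5e-08) and 0.88 (adjusted p = 6.3e-07). Eef2, the elongation factor that moves the ribosome along mRNA, rose by 0.73 (adjusted p = 3.6e-05), from 3192, 3199 and 3282 CPM to 5048, 5980 and 4987. The histone chaperone Nap1l1 fell, at -0.77 (adjusted p = 0.00055). Of the 32, 13 were lower (40.6%) and 2 higher (6.25%) in IL-1βlow + CYT against CYT cells, against 25.5% and 25.3% of all tested genes. Among the lower ones were Eif4b at -1.17 (adjusted p = 5.6e-08), Pabpc4 at -0.77 (adjusted p = 8.4e-07) and the initiation factor subunit Eif3d at -0.76 (adjusted p = 1.0e-05).

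Genes of ribosome assembly and ribosomal RNA synthesis formed a list of 135, all tested. With CYT 66 rose (48.9%) and 12 fell (8.89%), against 30.6% and 31.7% of all tested genes, with a median log2 fold change of 0.26. Shq1, a chaperone of box H/ACA particles, rose by 1.73 (adjusted p = 4.5e-09), Nob1, the nuclease that makes the final cut of the 40S rRNA, by 1.42 (adjusted p = 2.6e-08), and Polr1h, a subunit of RNA polymerase I, by 1.08 (adjusted p = 1.8e-06). Las1l, a nuclease of pre-rRNA processing, fell, at -0.80 (adjusted p = 2.7e-06), as did Brix1 at -0.75 (adjusted p = 0.0092) and Imp3 at -0.49 (adjusted p = 0.0034). Between IL-1βlow + CYT and CYT cells 67 were lower (49.6%) and 6 higher (4.44%), with a median of -0.29. Of all tested genes 25.5% were lower and 25.3% higher.

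Of 75 tested genes for proteins of the mitochondrial ribosome, a separate set of nuclear genes, 37 rose (49.3%) and 12 fell (16%) with CYT, against 30.6% and 31.7% of all tested genes, with a median log2 fold change of 0.24. Mrps18b rose by 1.22 (adjusted p = 3.0e-08), Mrpl38 by 1.06 (adjusted p = 2.4e-07) and Mrpl15 by 1.03 (adjusted p = 1.1e-07). Mrps21l, Mrps21 and Mrpl49 fell, at -1.40 (adjusted p = 0.00016), -1.07 (adjusted p = 7.8e-06) and -0.95 (adjusted p = 2.9e-05). Mrps21l was a low-count gene, at 4.12, 3.43 and 5.23 CPM in untreated and 1.96, 1.34 and 1.53 in CYT libraries. By its name it may share reads with Mrps21, so the values of both are uncertain. In IL-1βlow + CYT against CYT cells 25 were lower (33.3%) and 16 higher (21.3%), near the 25.5% and 25.3% of all tested genes, with a median of -0.08. No test of the difference between these lists was made.

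**Figure D5:**
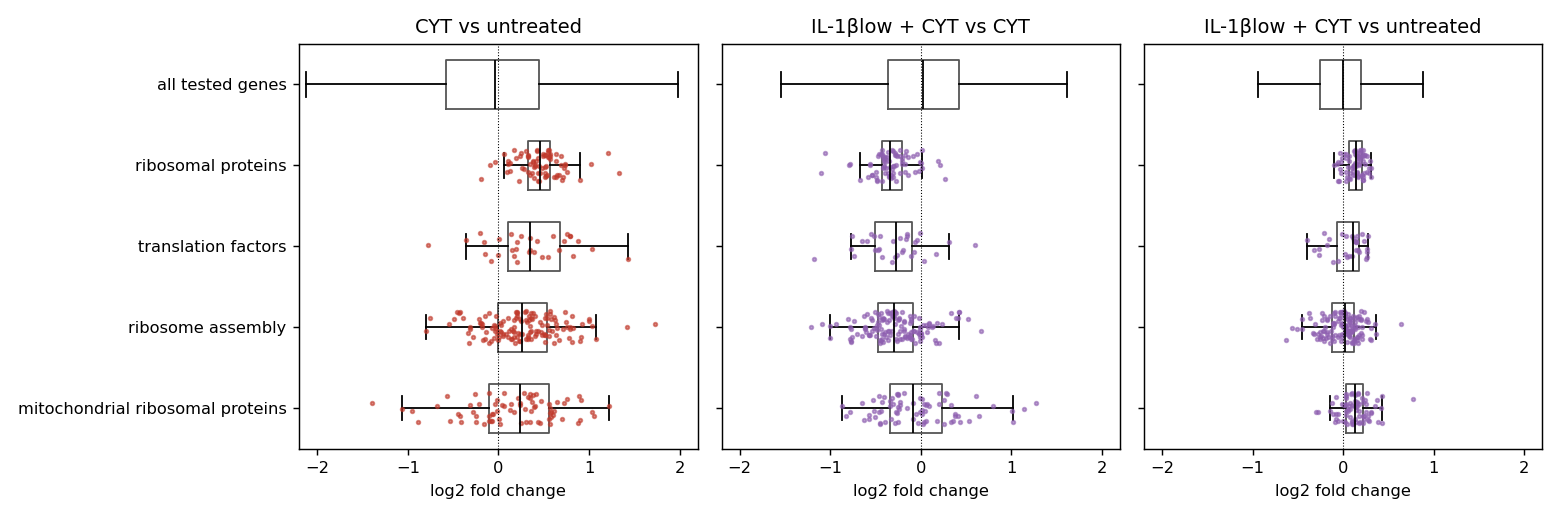
log2 fold change of each gene of 4 lists and of all tested genes (box with median and quartiles, whiskers to the farthest gene within 1.5 box lengths, and points for single genes of the lists) in CYT against untreated, IL-1βlow + CYT against CYT, and IL-1βlow + CYT against untreated cells. Cytosolic ribosomal proteins have medians of 0.45, -0.34 and 0.14 in the 3 comparisons, and mitochondrial ones medians of 0.24, -0.08 and 0.13.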

How the data were processed

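Poly(A) RNA of 12 INS-1E samples was made into TruSeq libraries. Reads were checked with FastQC, trimmed with rfastp, aligned to mRatBN7.2 with Rsubread and counted on genes with featureCounts by the authors, and the table the authors deposited holds these raw counts by gene symbol, not normalized. Strand and multi-mapping settings are not given in the sources used here, which affects overlapping genes and copies. All 12 columns were matched to samples by library name.

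In R 4.3.3 with edgeR 4.0.16, the filter was a CPM above 1 in 2 or more libraries, and counts were scaled by TMM. All 12 libraries entered 1 quasi-likelihood fit with 1 coefficient per group (8 residual degrees of freedom, common biological coefficient of variation 0.123). The study used exactTest, here an alternative beside DESeq2 1.42.0, other scalings and filters, a replicate block and leaving out each library. Calls were made at an adjusted p (Benjamini-Hochberg, all genes) under 0.05, and also at the study's thresholds (adjusted p under 0.01, log2 fold change above 0.6 for IL-1βlow against untreated and 1 elsewhere). An SE is the log2 fold change over the root of its F value. Genes named were those past the study's thresholds, the 5 largest called changes per direction and comparison, members with a known role and the 3 smallest CYT changes, and at most 3 called genes per direction from other lists. Rps24, Rpl38 and the gene copies were chosen after their values were seen. The members, lists and promoter motifs were chosen with earlier results of these data known. The scripts were tested on simulated counts. Replicate numbers come from the labels, which do not say what they mark. Deviations of same-numbered libraries from their group means were correlated. The correlation was over 0.1 in all 9 pairs among the 3 cytokine groups (0.116 to 0.520). With untreated libraries it was over 0.1 in 4 of 9 pairs (-0.188 to 0.181). Numbers were therefore read as pairs between cytokine groups and not with untreated cells, although these ranges overlap. The main fit had no block and did not take up this pairing, which entered only the blocked fits. The block over all 12 libraries also paired untreated libraries by number. Its counts against untreated cells and in the interaction rest on that pairing. Pairs of libraries of a group differed 7.11 to 27.5 times more than counting noise gives, by chi-square, and each was used as 1 replicate. CPM is not corrected for transcript length, so levels were not compared between genes. Promoters came from RefSeq GRCr8. Protein data were not analysed here, and a few genes, though counted in the totals, are not reported singly here.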

Additional observations from a re-analysis of the deposited data

Results flagged for a closer look

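The response of ribosomal protein genes to CYT differed between cells with and without IL-1βlow preconditioning. The interaction term, a test of that difference itself, passed for 50 of the 76 genes, all with a lower response in preconditioned cells, against 19.1% of all tested genes lower and 18.1% higher. Without CYT replicate 2 the count was 32, with no count over all tested genes beside it. Rpl12 had an interaction of -1.33 on the log2 scale, with a CYT response of 1.33 without preconditioning and 0.00 with it. Rpl10a had an interaction of -1.23, with responses of 1.21 and -0.02, and Rps20 had -1.12, with 1.02 and -0.10. The direction was the same for these 3 genes in every fit that left out a library. Each may share reads with a named copy, so these values are uncertain.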

How the results depend on the processing

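For the members named by the rule above, no result that passed its test changed direction under any alternative. The other called members were not followed singly. The counts of called genes moved by over 1.5 times as follows. At the study's thresholds, 3 genes were higher with CYT, 2 lower in IL-1βlow + CYT against CYT cells, 0 higher in IL-1βlow + CYT against untreated cells and 3 passed in the interaction. For IL-1βlow + CYT against untreated cells the count of 2 became 5 with DESeq2 and 9 with the replicate block. Without Rn45s the shares were 1.26%, 1.39%, 1.76% and 1.39% in untreated, IL-1βlow, CYT and IL-1βlow + CYT cells. By geometric means the ratio of 40S to 60S genes was 0.706, 0.690, 0.694 and 0.692. The cause of these moves was not tested. Leaving out 1 library gave 57 to 62 genes higher with CYT, 35 to 55 lower and 0 to 1 higher in IL-1βlow + CYT against CYT cells, 0 to 13 higher in IL-1βlow + CYT against untreated cells, and 32 to 55 in the interaction. Upper quartile scaling gave 57, 37, 2 and 39 in the same order of comparisons. Calls over all tested genes were not counted for these fits, for DESeq2 or for the block in cytokine-treated libraries alone. Whether these counts, here and above, moved more than those of all genes is thus not known. Of 60 called results for named genes, 522 values under settings other than leaving out 1 library held 6 that no longer passed. These settings include fits of only the groups compared and of the 9 cytokine-treated libraries.

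The replicate block over all 12 libraries gave 63 genes higher with CYT (61 shared with the fit without it), 57 lower in IL-1βlow + CYT against CYT cells (48 shared), 9 higher in IL-1βlow + CYT against untreated cells (2 shared), and 62 in the interaction (50 shared). This block also paired untreated libraries by number, a pairing not read from the correlations. Calls over all tested genes, both directions together, also went up with the block. They went from 8926 to 9819, 7267 to 8319, 3124 to 4548 and 5337 to 6677 in the same order. In a fit of the 9 cytokine-treated libraries, chosen after seeing the data, the replicate block gave 64 lower in IL-1βlow + CYT against CYT (48 shared) and 1 lower against IL-1βlow cells. The depth was enough for every gene of the family to have at least 10 counts in every library, and 8 had a mean under 10 CPM. The reads carry no molecular identifiers, and depth therefore limits counting error alone.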

Other observations

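Among 32 tested genes that regulate ribosomal protein synthesis, such as the mTORC1 pathway, S6 kinases and the Myc network, 15 rose and 9 fell with CYT, with a median log2 fold change of 0.02. These are 46.9% and 28.1%, against 30.6% and 31.7% of all tested genes. Myc, a transcription factor that drives ribosome production, was at 36.5, 16.9 and 30.6 CPM in untreated libraries, 34.9, 18.5 and 32.1 in IL-1βlow, 101, 138 and 111 in CYT and 23.1, 18.4 and 22.1 in IL-1βlow + CYT. The CYT libraries held far more than any other, and the IL-1βlow + CYT libraries overlapped the untreated ones. Myc rose with CYT by 2.06 ± 0.25 (SE, adjusted p = 7.5e-06) and was lower in IL-1βlow + CYT against CYT cells, at -2.46 ± 0.26 (SE, adjusted p = 3.4e-06). The Myc antagonists Mxd1 and Mnt also rose, by 1.74 (adjusted p = 4.3e-06) and 1.57 (adjusted p = 5.4e-09). Ddit4, an inhibitor of mTORC1, rose by 1.34 (adjusted p = 6.9e-08). Rps6ka6 fell, at -1.48 (adjusted p = 0.0023), as did the gene Castor2 of the arginine sensor family, at -1.40 (adjusted p = 2.2e-06), and Sesn1, at -0.99 (adjusted p = 0.00012). In IL-1βlow + CYT against CYT cells 13 of the 32 were lower (40.6%) and 7 higher (21.9%), against 25.5% and 25.3% of all tested genes. Castor2 was among the higher ones at 1.52 (adjusted p = 2.2e-06).

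Of 7 tested genes of the Mdm2 branch to which free Rpl5 and Rpl11 connect, 5 rose with CYT and none fell. Of all tested genes 30.6% rose and 31.7% fell. Mdm2 rose by 0.47 (adjusted p = 0.0021) and Bbc3, an inducer of apoptosis, by 2.28 (adjusted p = 5.6e-10). In IL-1βlow + CYT against CYT cells 4 of the 7 were lower, against 25.5% of all tested genes, with Mdm2 at -0.60 (adjusted p = 0.00048) and Bbc3 at -1.61 (adjusted p = 6.0e-08).

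Rpl22l1, the paralogue of Rpl22, had 11.8, 12.5 and 25.4 CPM in IL-1βlow libraries 1 to 3, against 27.9, 27.5 and 21.3 in untreated ones. Rpl22l2, chosen after its values were seen, showed the same split, at 3.79, 2.27 and 7.22 CPM in IL-1βlow libraries and 8.82, 7.75 and 5.11 in untreated ones. Replicate 3 thus lay at or near the level of the other groups for both genes and replicates 1 and 2 lay below every other library, and neither gene passed in IL-1βlow against untreated cells, with log2 fold changes of -0.63 (adjusted p = 0.26) and -0.71 (adjusted p = 0.36). The names do not show whether reads were shared between them.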
